A study of Mus musculus with 2 samples.

Results

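The genes described here are 8 genes of matricellular proteins and fibronectin: Thbs1, Thbs2, Thbs3, Thbs4, Tnc, Sparc, Spp1 and Fn1. They were chosen by symbol, all 8 were found among the 26100 genes listed in both expression matrices, and they were followed across 2 mouse cell cultures. The MEF library held embryonic mouse fibroblasts (MEF), connective tissue cells in primary culture, grown in fibroblast medium. The iMPC library held induced myogenic progenitor cells, which had been made out of fibroblasts by MyoD, a master regulator of muscle, together with a mixture abbreviated F/R/C (forskolin, RepSox and CHIR99021 in the published method), and which were kept in medium with that mixture. Both cultures carried the Pax7-nGFP transgene on a mixed C57BL6 and DBA2 background, the age of the embryos is not given in the sources used here, and the iMPC culture came from 1 clone per the series' design text. The treatment label of the MEF sample names fibroblast medium, although its protocol field repeats the text of the iMPC sample. Each culture was measured in 1 library of the 10x Genomics 3′ assay, in which every captured RNA molecule counts as 1 unique molecular identifier (UMI), so there was no replicate and no test was made. All intervals are 95% intervals for counting error only.

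Fibronectin, the product of Fn1, is assembled by integrins into fibrils on which other matrix proteins are laid down. Matricellular proteins are secreted into the matrix and act on cells through integrins and other receptors more than as structural parts. The thrombospondins (Thbs1 to Thbs4) bind integrins, and the product of Thbs1 also binds CD36 and CD47. Tenascin-C (Tnc) modulates adhesion to fibronectin, SPARC (Sparc) binds collagen, and osteopontin (Spp1) is a phosphorylated ligand of integrins and CD44. In muscle, fibronectin and tenascin-C belong to the matrix around satellite cells, the Pax7-positive stem cells, and several of these proteins rise when muscle regenerates.

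MEF cells were those with at most 20% mitochondrial UMIs, 6043 cells with a median of 18929 UMIs. The iMPC matrix lists 6794880 barcodes, so a UMI minimum was applied there, between the 5000 and 12000 UMIs tried as alternatives, and 9540 barcodes passed it. Of these, 9349 were within the mitochondrial limit and were kept, with a median of 20846 UMIs. Among the kept cells of the 2 libraries, 16 barcodes were found in both. Within iMPC, 4 sets were taken by UMIs of marker genes. The Pax7 set (Pax7 at least 1 and Myog 0) held 2180 cells, the Myog set (Myog at least 5 and Ckm at most 1) 1724 cells, the Ckm set (Ckm at least 5) 1037 cells and the Dcn set (Dcn at least 5) 553 cells. A further 4001 iMPC cells (42.8%) fell in no set, and 110 cells were in both the Pax7 and the Dcn set.

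These sets are ranges of UMI counts and not cell types. Median UMIs per cell were 18730 in the Pax7 set, 23858 in the Myog set, 42148 in the Ckm set and 18064 in the Dcn set, and deeper cells pass a fixed minimum more easily. The summed level of 8 myocyte markers was 921 counts per 1000000 UMIs (CPM) in the Pax7 set, 14396 CPM in the Myog set and 49558 CPM in the Ckm set. It was 4420 CPM in the Dcn set, above the Pax7 set. That of 9 fibroblast markers, of which Dcn is 1, was 7132 CPM in MEF, 5217 CPM in the Dcn set, 1403 CPM in the Pax7 set, 307 CPM in the Myog set and 147 CPM in the Ckm set. The median cell of the Dcn set held 2 UMIs of Col1a1 and 0 of Pax7, Myog and Ckm, but 38.5% of its cells had a Myog UMI. Markers of macrophages, which are known for Spp1, summed to 3.29 CPM in the Dcn set and to 3.68 CPM in MEF, and 4 and 3 of the 7 were at 0. Those of osteoblasts and chondrocytes summed to 117 and 53.1 CPM, of adipocytes to 24.3 and 5.21 CPM and of glia to 13.0 and 1.85 CPM. In the Dcn set these sums came mostly from 1 gene each, with 78.3, 19.2 and 11.4 CPM, and 1 gene of each list was at 0. Lower in the Dcn set than in MEF were the markers of smooth muscle (1098 and 9884 CPM), tendon (4.27 and 8.91 CPM) and epithelium (0.164 and 14.6 CPM). Endothelial markers stood at 0.657 and 0.618 CPM. Near the thresholds, 54 cells with 4 Dcn UMIs held Spp1 at 9476 CPM and 29 cells with 5 held it at 8903 CPM. The 118 cells with 4 Myog UMIs held Fn1 at 224 CPM and the 77 with 5 at 199 CPM, while for Ckm the 115 cells with 4 UMIs and the 105 with 5 held Spp1 at 835 and 392 CPM. Cells without Myog that had 0 Pax7 UMIs (1420 cells) held Spp1 at 5486 CPM, against 4237 CPM in the 889 with 1. The 1077 with 2 to 4 held it at 2669 CPM and the 214 with 5 or more at 1857 CPM. In the same order Fn1 stood at 675, 469, 335 and 269 CPM and Sparc at 2103, 1545, 1335 and 992 CPM. Tnc did not fall in this way, at 83.0, 73.1, 82.0 and 87.5 CPM.

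The first question was how far the matricellular program of the fibroblasts was kept in the converted culture. Of the 8 genes, 6 were at least 2-fold lower in iMPC (Thbs1, Thbs2, Thbs3, Tnc, Sparc and Fn1) and Spp1 was higher. Levels are taken from UMIs summed over cells, and a gene was counted where it reached 10 CPM in the higher set, which left out Thbs4. Over the 8605 genes counted, 36.3% were past 2-fold in either direction, 21.5% lower and 14.8% higher. The median log2 ratio was -3.13 over the 7 counted members and -0.17 over all genes. The typical gene itself lay below 0, with a median-based scale shift (log2) of -0.21 here, -0.19 from the Pax7 to the Myog set and -0.25 from the Myog to the Ckm set. Taken relative to that shift, the counted members kept their direction in these 3 comparisons.

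Fibronectin (Fn1, ENSMUSG00000026193, chromosome 1, 71585520 to 71653200 on GRCm38) stood at 1707 CPM in MEF and 261 CPM in iMPC. Its log2 ratio of iMPC over MEF was -2.71 (-2.72 to -2.70). A UMI of Fn1 was found in 95.8% of MEF cells and 50.02% of iMPC cells after each cell was thinned to 5000 UMIs, and in 96.5% and 78.0% without thinning. Sparc (chromosome 11, 55394500 to 55423183) stood at 3028 CPM in MEF and 1001 CPM in iMPC, a log2 ratio of -1.60 (-1.60 to -1.59). Nearly every cell of either culture held it, with 98.5% of MEF and 89.1% of iMPC cells after thinning, so its difference was one of amount more than of the number of cells with a UMI.

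Among the thrombospondins, Thbs1 (chromosome 2, 118111876 to 118127133) differed most. It stood at 1883 CPM in MEF and at 14.2 CPM in iMPC, 133-fold lower (128 to 137), and 24 of the 8605 genes had a lower ratio. A Thbs1 UMI was found in 87.3% of MEF and 4.91% of iMPC cells after thinning, or 93.0% and 14.1% before. Thbs2 (chromosome 17, 14665500 to 14694235) stood at 219 CPM and 13.9 CPM, a log2 ratio of -3.97 (-4.03 to -3.92). Thbs3 (chromosome 3, 89215180 to 89226837) had a like ratio of -3.97 (-4.21 to -3.74), but from low levels of 11.5 CPM and 0.735 CPM. Its neighbour Mtx1, which overlaps it on the other strand, stood at 36.9 CPM in MEF and 35.7 CPM in iMPC.

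Thbs4 (chromosome 13, 92751590 to 92794818) was the only thrombospondin seen in iMPC alone. It had 378 UMIs in iMPC (1.62 CPM) and 0 in MEF, where the interval for 0 UMIs ends at 0.0312 CPM. Over a floor of 3 counts in MEF (0.0254 CPM), Thbs4 was 63.9-fold higher in iMPC. The exact counting interval of that ratio begins at 51.7. Its level was low in every set: a UMI was found in 0.856% of thinned iMPC cells and in 0 of 5759 thinned MEF cells.

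Tenascin-C (Tnc, chromosome 4, 63959785 to 64047015) was measured at 451 CPM in MEF and 51.5 CPM in iMPC, a log2 ratio of -3.13 (-3.16 to -3.10). In contrast to Thbs1, it was still found in 21.9% of thinned iMPC cells, against 73.8% of MEF cells. Osteopontin (Spp1, chromosome 5, 104435118 to 104441050) went the other way, from 443 CPM in MEF to 2030 CPM in iMPC, a log2 ratio of 2.20 (2.18 to 2.21). It was found in 30.8% of thinned MEF and 58.9% of thinned iMPC cells. The 10% of iMPC cells with the highest level held 63.2% of its UMIs, and the corresponding MEF cells held 81.8%, so Spp1 was unevenly spread in both cultures.

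**Figure D1:**
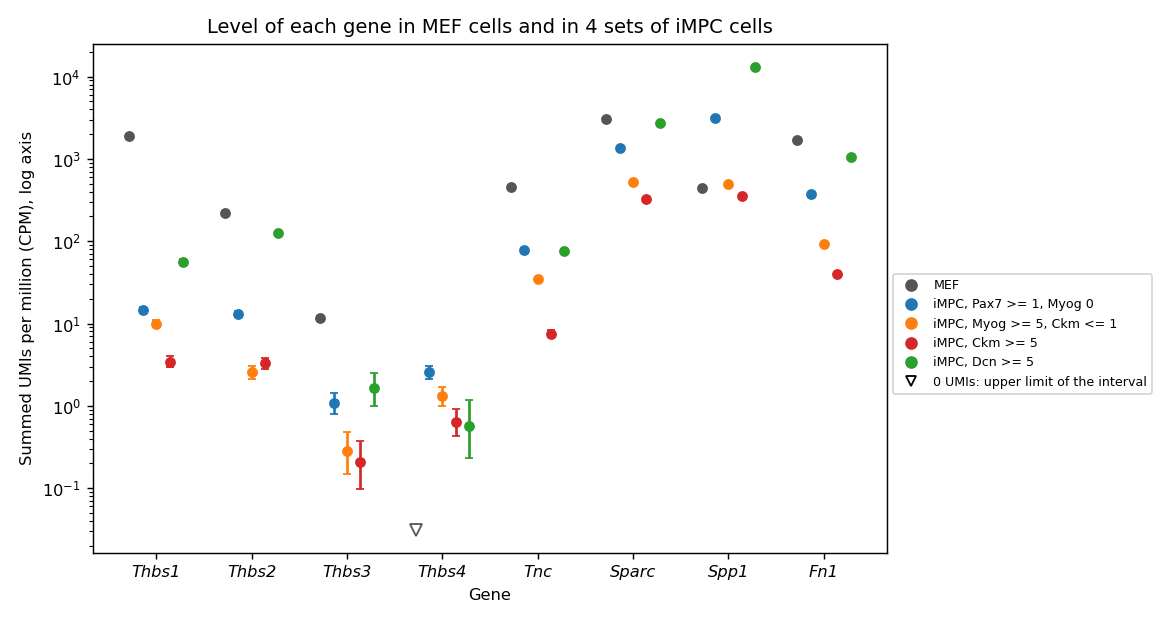
Level of each gene in CPM (log axis) in MEF cells and in the 4 iMPC sets, with exact Poisson 95% intervals that are often smaller than the point; the open triangle is the upper end of the interval for Thbs4 in MEF, which had 0 UMIs. The points of Thbs1 in iMPC lie at 56.5 CPM or below, far under 1883 CPM in MEF, whereas Spp1 reaches 12996 CPM in the Dcn set.

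The promoters of Spp1, Thbs2 and Tnc are shown because these genes took different courses: Spp1 was higher in iMPC and rose with Dcn, Thbs2 was lower in iMPC but rose with Dcn, and Tnc was lower and level between the Dcn and Pax7 sets. RefSeq (GRCm38.p6) gave a window for 6 of the 8 genes, and 2 windows each for Spp1 and Tnc, of which the one farther upstream is printed. Each sequence is the 250 bases before the RefSeq start, 5′ to 3′ on the gene's strand, and capitals mark matches on either strand to any of 7 short motifs.
Spp1: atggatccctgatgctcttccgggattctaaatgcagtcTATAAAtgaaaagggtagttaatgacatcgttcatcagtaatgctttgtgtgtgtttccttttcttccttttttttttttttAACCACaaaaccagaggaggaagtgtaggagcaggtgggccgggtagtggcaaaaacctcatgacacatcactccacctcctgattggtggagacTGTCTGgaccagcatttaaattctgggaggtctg
Thbs2: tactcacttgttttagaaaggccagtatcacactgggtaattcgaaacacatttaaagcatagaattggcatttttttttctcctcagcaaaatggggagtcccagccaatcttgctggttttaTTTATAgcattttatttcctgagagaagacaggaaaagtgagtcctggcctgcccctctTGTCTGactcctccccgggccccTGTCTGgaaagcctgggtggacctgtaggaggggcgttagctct
Tnc: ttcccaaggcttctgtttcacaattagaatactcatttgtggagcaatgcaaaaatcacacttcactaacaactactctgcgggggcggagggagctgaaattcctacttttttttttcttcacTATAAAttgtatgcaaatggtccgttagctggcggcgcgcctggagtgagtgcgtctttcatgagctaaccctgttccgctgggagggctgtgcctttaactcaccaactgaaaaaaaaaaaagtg
The windows lie at chr5:104434861-104435110 on the plus strand for Spp1, chr17:14694263-14694512 on the minus strand for Thbs2 and chr4:64047016-64047265 on the minus strand for Tnc. The cAMP response element was searched as TGACGTCA and the site of AP-1 as TGACTCA, with TGAGTCA as its reverse complement. The E-box that MyoD prefers was searched as CAGCTG, the site of TEAD factors as GGAATG and that of SMAD proteins as CAGACA. The site of RUNX factors was searched as AACCAC and the promoter box bound by TBP as TATAAA. No matches overlapped in the printed windows. In the same order, these motifs occur in 1.55%, 4.46%, 13.0%, 12.6%, 17.1%, 10.8% and 12.4% of 32851 such windows. Spp1 held a SMAD match that begins 34 bases before the start, a RUNX match at 129 and a TATA match at 211. Thbs2 held SMAD matches at 44 and 67 and a TATA match at 126, and Tnc a TATA match at 126. The second window of Tnc (chr4:64046937-64047186) held a SMAD match at 71 and a TATA match at 205, and that of Spp1 (chr5:104435942-104436191) held 0 matches. These matches describe the letters only.

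Within the iMPC culture, the members were compared between the Pax7, Myog and Ckm sets. A step here is a difference between 2 of these sets, whose order in time was not measured. From the Pax7 set to the Myog set, 5 of the 6 counted genes were at least 2-fold lower (Fn1, Sparc, Spp1, Thbs2 and Tnc) and 0 were higher, against 11.5% lower and 7.02% higher (18.6% in all) among 7932 genes. Fn1 stood at 377 CPM in the Pax7 set, 93.2 CPM in the Myog set and 39.7 CPM in the Ckm set. Its log2 ratio of the Myog over the Pax7 set was -2.02 (-2.07 to -1.97). Sparc stood at 1374, 527 and 328 CPM in the same order, with a first step of -1.38 (-1.41 to -1.36). The Pax7 set in this step includes the 110 cells that are also in the Dcn set. In its 1931 cells with 0 Dcn UMIs, Thbs2 stood at 4.92 CPM, under the 10 CPM needed to be counted. Spp1 stood there at 2000 CPM, Fn1 at 301 CPM, Sparc at 1258 CPM and Tnc at 80.4 CPM.

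Spp1 showed the largest first step, from 3162 CPM in the Pax7 set to 500 CPM in the Myog set, a log2 ratio of -2.66 (-2.68 to -2.64). Of the 7932 genes, 40 had a lower ratio. In the Myog set 82.8% of the Spp1 UMIs lay in the 10% of cells with the highest level, and the median cell stood at 61.2 CPM. Cells that the doublet caller Scrublet marked made up 7.02% of the Myog set and 1.33% of the Pax7 set. Without them Spp1 stood at 298 CPM in the Myog set, and the log2 ratio was -3.42. In the Dcn set 7.41% of cells were marked. Without them it held Spp1 at 14092.5 CPM, Sparc at 2952 CPM, Fn1 at 1148 CPM and Thbs2 at 140 CPM. The share marked was highest in the Ckm set, at 7.91%. Without these cells the Ckm set held Spp1 at 185 CPM, Fn1 at 21.8 CPM, Tnc at 4.55 CPM and Sparc at 257 CPM, and Fn1 in the Myog set stood at 69.3 CPM.

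Tnc stood at 79.3 CPM in the Pax7 set, 34.4 CPM in the Myog set and 7.54 CPM in the Ckm set. It was the member with the lowest log2 ratio in the second step, with -1.20 (-1.29 to -1.12) in the first and -2.19 (-2.36 to -2.03) in the second. With the sets called after thinning to 8000 UMIs the first step was -2.03. Thbs1 did not reach 2-fold in the first step, at 14.7 CPM and then 9.98 CPM, a log2 ratio of -0.56 (-0.74 to -0.39), and it stood at 3.45 CPM in the Ckm set. Thbs2 stood at 12.9 CPM, 2.58 CPM and 3.27 CPM, and the intervals of the last 2 values overlap (with at least 50 Ckm UMIs the second log2 ratio was -1.10, against 0.34). Its first log2 ratio was -2.33 (-2.62 to -2.04), or -2.96 without the marked doublets. Without them the Myog and Ckm sets held Thbs2 at 1.66 and 1.60 CPM.

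From the Myog to the Ckm set, 2 of the 4 counted genes (Tnc and Fn1) were at least 2-fold lower, against 13.8% lower and 6.53% higher (20.4% in all) among 7332 genes. Fn1 had a log2 ratio of -1.23 (-1.31 to -1.16). This count fell to 1 when the ratios were scaled by the median gene or the sets were called at 8000 UMIs. Fn1 then stood at -0.98 and -0.66. With a minimum of 1 CPM in the higher set the count was 4. Thbs1, at 9.98 CPM in the Myog set, lay just under the 10 CPM needed, with a log2 ratio of -1.53 (-1.79 to -1.27). Sparc (-0.68) and Spp1 (-0.51) did not reach 2-fold. Spp1 turned to 0.15 with sets called at 8000 UMIs, and with at least 50 Ckm UMIs Sparc stood at -1.34 and Tnc at -2.84. In order of level, Spp1 was highest in the Dcn set, then in the Pax7 set, the Myog set, MEF and the Ckm set. Without the marked doublets the Myog set, at 298 CPM, came after MEF, at 429 CPM.

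The thrombospondins of low level also differed between the Pax7, Myog and Ckm sets. Thbs4 stood at 2.57 CPM (2.12 to 3.09) in the Pax7 set, 1.30 CPM (0.991 to 1.67) in the Myog set and 0.637 CPM (0.433 to 0.904) in the Ckm set. Thbs3 stood at 1.09, 0.281 and 0.206 CPM, and the last 2 intervals overlap. Both lay under the 10 CPM needed to be counted, and the second step of Thbs4 turned from -1.03 to 0.38 with at least 50 Ckm UMIs.

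As a proxy of free RNA in droplets, 48846 iMPC barcodes of 200 to 600 UMIs were used, although what they hold was not tested. At the share these barcodes give, such RNA would put a UMI of Sparc in 1.61%, of Spp1 in 3.31%, of Fn1 in 0.631% and of Tnc in 0.142% of thinned cells of the Ckm set. The measured shares were 64.7%, 32.2%, 10.99% and 3.95%. Barcodes of 1 to 100 UMIs held these genes at higher levels than those of 200 to 600 UMIs: Sparc at 837 against 319 CPM, Spp1 at 1280 against 659 CPM, Fn1 at 368 against 124 CPM and Tnc at 94.1 against 27.9 CPM. No share was computed from that profile, and no set of cells in these cultures is known to lack these genes.

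**Figure D2:**
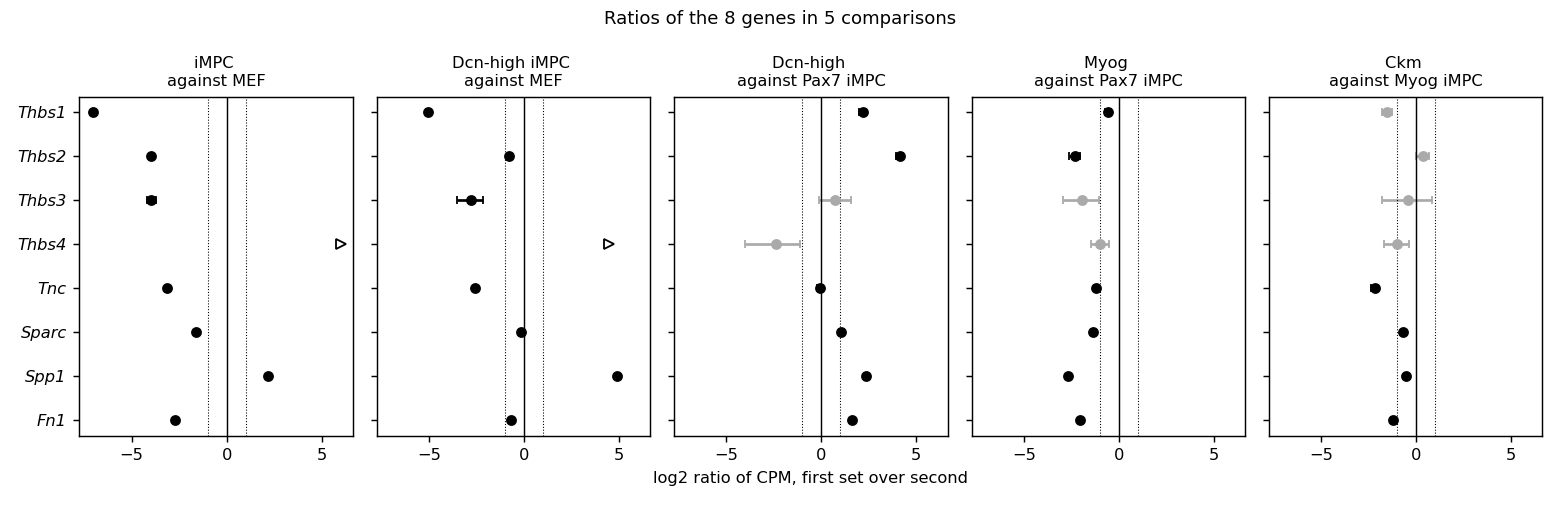
Log2 ratio of CPM for each gene in 5 comparisons, with exact 95% counting intervals; grey points had under 10 CPM in both sets, open arrowheads are lower bounds for Thbs4, and dotted lines mark a 2-fold difference. In the step from Pax7 to Myog all points lie left of 0, and in the comparison of the Dcn and Pax7 sets Thbs2 lies farthest right at 4.14.

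The Dcn set was then set against MEF, since Dcn is a fibroblast gene that both cultures hold. Only the iMPC cells were selected by Dcn, and all MEF cells were used. The median MEF cell held 2 Dcn UMIs and that of the Dcn set 18, with Dcn at 268 and 1162 CPM. In the Dcn set, Sparc, Fn1 and Thbs2 lay within 2-fold of the level in all MEF cells, while Thbs1, Thbs3 and Tnc stayed lower and Spp1 was far higher. Among 8525 genes, 25.9% were past 2-fold, 12.9% lower and 13% higher, and of the 7 counted members 3 were lower and 1 higher. Sparc stood at 2702 CPM in the Dcn set, a log2 ratio over MEF of -0.16 (-0.18 to -0.15). Fn1 stood at 1053 CPM, a log2 ratio of -0.70 (-0.72 to -0.67), and Thbs2 at 127 CPM, a log2 ratio of -0.78 (-0.86 to -0.71).

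Thbs1 stood at 56.5 CPM in the Dcn set, still 33.3-fold lower than in MEF (30.9 to 36.0), and 46 of 8525 genes had a lower ratio. Tnc stood at 76.3 CPM, with a log2 ratio of -2.56 (-2.66 to -2.47). Thbs3, with 20 UMIs in the set, stood at 1.64 CPM and at a log2 ratio of -2.81 (-3.53 to -2.18). Spp1 reached 12996 CPM, with a log2 ratio of 4.87 (4.86 to 4.89), and 195 genes had a higher ratio. In the median cell of the set Spp1 stood at 12802 CPM, against 0 in the median MEF cell, and the 90th percentile of MEF cells was 987 CPM.

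Compared with the Pax7 set, cells in both sets left out, the Dcn set held 5 of 6 counted members at least 2-fold higher (Thbs1, Thbs2, Sparc, Spp1 and Fn1) and 0 lower, against 12.3% higher and 7.47% lower (19.8% in all) among 8235 genes. Thbs2 differed most, with levels of 130 and 7.40 CPM and a log2 ratio of 4.14 (3.96 to 4.32), and 32 genes had a higher ratio. With the shared cells kept in both sets it was 3.30. Spp1 had a log2 ratio of 2.33 (2.32 to 2.34), Thbs1 of 2.17 (2.01 to 2.34) and Fn1 of 1.61 (1.58 to 1.65). Sparc lay close to the limit, at 1.06 (1.03 to 1.08), and fell under 2-fold when CPM were averaged over cells, with a total that leaves out mitochondrial and ribosomal protein genes, and with shared cells kept (lowest value 0.95).

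Tnc set itself apart from the other counted members here. It stood at 73.9 CPM in the Dcn set and 78.9 CPM in the Pax7 set, a log2 ratio of -0.09 (-0.21 to 0.02). With sets called at 8000 UMIs it was -0.45. Thbs4 was lower in the Dcn set, with 5 UMIs (0.506 CPM) there and 2.66 CPM in the Pax7 set. Its log2 ratio was -2.39 (-4.05 to -1.13), between levels too low to be counted.

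The 110 cells that were in both sets held 5 of the 6 counted genes at least 2-fold higher than the 1931 cells of the Pax7 set with 0 Dcn UMIs, against 12.8% higher and 8.74% lower among 8193 genes. Spp1 stood at 16978 CPM in them and at 2000 CPM in the cells without Dcn, a log2 ratio of 3.09 (3.07 to 3.10). For Thbs2 the levels were 114 and 4.92 CPM and the log2 ratio 4.53 (4.26 to 4.81). Thbs1 stood at 34.1 CPM against 11.2 CPM, Fn1 at 1224 CPM against 301 CPM and Sparc at 2691 CPM against 1258 CPM, while Tnc stood at 86.6 CPM against 80.4 CPM.

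By UMIs of Dcn, the genes took different courses. Spp1 rose from 1140 CPM in iMPC cells with 0 Dcn UMIs to 5520 CPM with 1 to 4 and 13392 CPM with 5 to 19, and stood at 12536 CPM with 20 or more. Fn1 likewise went from 192 to 581, 1013 and 1099 CPM, so both differed little between the last 2 groups. Thbs2 went on rising, from 5.37 to 41.2, 88.7 and 172 CPM. Sparc rose from 850 to 1722, 2469 and 2973 CPM. Thbs1 went from 10.2 to 36.1, 55.1 and 58.2 CPM. Tnc differed less, at 49.7, 55.3, 74.5 and 78.4 CPM. Thbs4 stood at 1.71, 1.33, 0.612 and 0.532 CPM, the last from 3 UMIs, and the intervals of the last 3 values overlap that of the first. Thbs3 stood between 0.621 and 2.13 CPM.

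Of all iMPC UMIs of Thbs2, 47.7% lay in the Dcn set, which is 5.92% of the cells. The set held 33.5% of the Spp1 UMIs, 21.1% of the Fn1 UMIs, 20.8% of the Thbs1 UMIs, 14.1% of the Sparc UMIs and 7.76% of the Tnc UMIs. It held 1.85% of the Thbs4 UMIs.

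**Figure D3:**
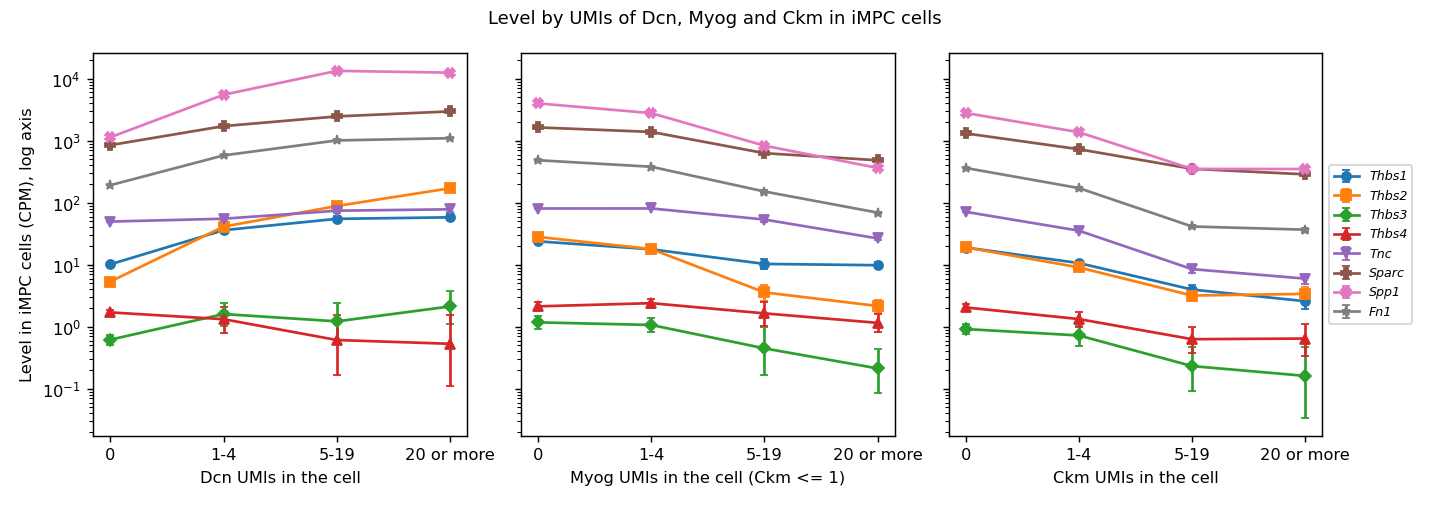
Level of each gene (CPM, log axis, exact Poisson 95% intervals) in iMPC cells grouped by their UMIs of Dcn, of Myog (cells with at most 1 Ckm UMI) and of Ckm. Spp1 rises from 1140 CPM at 0 Dcn UMIs to 13392 CPM at 5 to 19 and falls with Myog and Ckm.

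The Pax7 set was also split by the cycling gene Mki67, into 1053 cells without and 1127 cells with a UMI. Spp1, Fn1, Thbs1 and Thbs2 were more than 2-fold higher in cells without Mki67, where 4.18% of 7887 genes were and 5.08% were as much lower. Spp1 stood at 5727 CPM without and 1487 CPM with Mki67, a log2 ratio of 1.95 (1.93 to 1.96). Fn1 stood at 607 and 228 CPM, a log2 ratio of 1.42 (1.37 to 1.46).

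The thrombospondins followed at lower levels, with Thbs2 at 24.3 and 5.48 CPM and Thbs1 at 25.6 and 7.62 CPM. Sparc differed less, at 1773 and 1113 CPM. Tnc went the other way, at 67.3 CPM without and 87.1 CPM with Mki67, a log2 ratio of -0.37 (-0.48 to -0.27). Thbs4 did too, at 1.21 and 3.46 CPM, a log2 ratio of -1.52 (-2.28 to -0.82). Median UMIs per cell were 15673 without and 22221 with Mki67. An Mki67 UMI was found in 17.7% of cells of the Dcn set and 51.7% of the Pax7 set. The Pax7 set holds 110 cells of the Dcn set. The parts of depth and of Dcn cells in these differences were not tested.

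How the members varied together over single cells differed between the cultures. In 6043 MEF cells, Fn1, Thbs1, Tnc and Sparc were correlated with each other, with Pearson's r of log2(counts per 10000 + 1) from 0.46 to 0.55, and Spp1 was near 0 with each of these 4, with r from -0.09 (Tnc) to -0.0016 (Fn1). In 9349 iMPC cells the leading pair was Spp1 and Fn1 (r = 0.77), followed by Sparc and Fn1 (0.61) and Sparc and Spp1 (0.56), whereas Thbs1 and Tnc had an r of 0.10. These values describe cells of 1 library that share its composition and depth. The r of Fn1 with the log of the cell's total UMIs was 0.27 in MEF and -0.33 in iMPC, and sparse genes give low values.

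The 5 genes most like each member by this measure were taken among genes of at least 20 CPM. In MEF, Sparc was most like Col1a1 (r = 0.76), Serpinh1 (0.71), Col1a2 (0.68), Fstl1 (0.58) and Col5a2 (0.57), which are collagens, a collagen chaperone and a secreted relative of SPARC. Fn1 was most like Thbs1 (0.55), Sparc (0.53), Col1a1 (0.51), Col1a2 (0.50) and the mitochondrial gene mt-Nd1 (0.48). Thbs1 was most like Fn1 (0.55), Col12a1 (0.54), Prss23 (0.52), Lox (0.51) and Lpp (0.49).

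Tnc in MEF was most like Thbs1 (0.49), Fn1 (0.47), Sparc (0.46), Col1a1 (0.42) and Col12a1 (0.41). Thbs2 was most like Aebp1 (0.40), Lrp1 (0.39), Ccl7 (0.39), Cdh11 (0.38) and Fn1 (0.37). Spp1 had a different company, Mgp (0.40), Mcpt8 (0.37), Ctsl (0.36), Mmp2 (0.36) and Ctsb (0.34), of which Ctsl and Ctsb are lysosomal proteases. The highest r of Thbs3 was 0.15, with Col1a1.

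In iMPC, Fn1 was most like Col6a1 (0.81), Col3a1 (0.78), Spp1 (0.77), Col18a1 (0.75) and Col6a2 (0.75). Spp1 was most like Fn1 (0.77), Col6a1 (0.76), Nid1 (0.74), Hmga2 (0.74) and Lrp1 (0.72), and Sparc was most like Col3a1 (0.77), Col5a2 (0.71), Col18a1 (0.70), Ifitm3 (0.70) and Serpinh1 (0.68). Thbs2 was most like Col6a3 (0.61), Aebp1 (0.61), Dcn (0.58), Mmp2 (0.57) and Colec12 (0.57).

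Tnc in iMPC was led by the cytoskeletal genes Actg1 (0.42), Tagln2 (0.41), Actb (0.40) and Tpm4 (0.38), with Ptma (0.39) among them. Thbs1 had weaker relations, with Col1a1 (0.40), Timp3 (0.37), Col6a3 (0.37), Col12a1 (0.36) and Ccnd2 (0.36) in the lead.

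**Figure D4:**
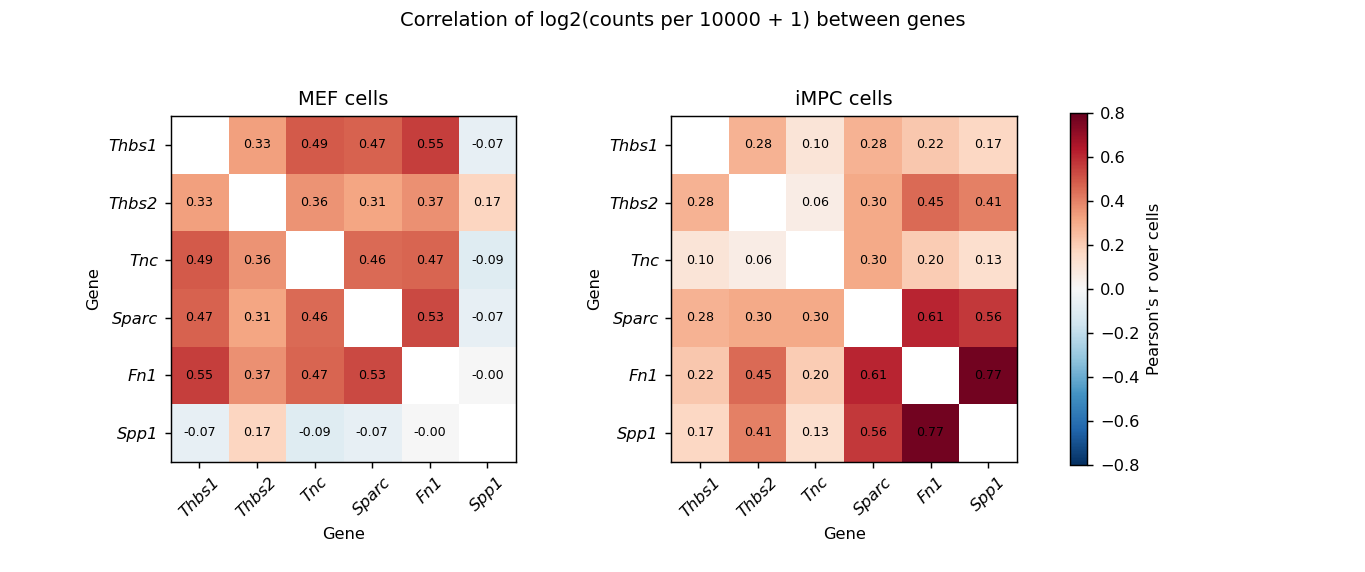
Pearson's r of log2(counts per 10000 + 1) between pairs of genes over 6043 MEF cells (left) and 9349 iMPC cells (right). Spp1 is near 0 with Fn1 in MEF and reaches 0.77 with it in iMPC.

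Receptors of these proteins were taken from a list of 18 genes, of which 14 were counted between the cultures. In iMPC, 7 were at least 2-fold lower than in MEF and 2 higher, with a median log2 ratio of -1.36. Over all genes 21.5% were lower and 14.8% higher in this comparison, and 12.3% higher and 7.47% lower in that of the Dcn and Pax7 sets, which holds for each list that follows. The integrin subunits Itgb5 (-3.30), Itgb3 (-2.66) and Itga8 (-2.56), which form receptors for RGD ligands such as osteopontin and fibronectin, were among the lower ones. Cd36, a scavenger receptor that binds the product of Thbs1, was higher, with a log2 ratio of 8.90 (7.36 to 11.18). That ratio rests on 3 UMIs in MEF, 0.0254 CPM, beside 12.2 CPM in iMPC. In the Dcn set, 6 of 13 receptors were at least 2-fold above the Pax7 set and 0 below. Itga8 (4.02), Itgb3 (3.52), the endocytic receptor Lrp1 (2.11) and the syndecan Sdc1 (1.68) had the largest log2 ratios.

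Of 22 other matricellular genes, 9 were counted and 8 of these were at least 2-fold lower in iMPC than in MEF. The largest log2 ratios were those of Smoc2 (-5.71), Ccn4 (-4.89) and Ccn3 (-4.48). Sparcl1, a relative of Sparc, was the exception (3.68), with 14.8 CPM in iMPC beside 1.16 CPM in MEF. Against the Pax7 set, the Dcn set held 4 of 7 at least 2-fold higher, which were Ccn2 (4.13), Tgfbi (3.35), Postn (2.24) and Sparcl1 (1.78).

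Among 18 genes of matrix assembly and processing, 17 were counted, of which 11 were at least 2-fold lower in iMPC and 1 higher. Fbln2, a fibronectin-binding fibulin, had a log2 ratio of -4.54, the crosslinking enzyme Lox of -3.64, the procollagen protease Bmp1 of -3.44 and Emilin1 of -2.95. The higher one was Fam20c, the kinase that phosphorylates osteopontin, with 13.8 CPM in iMPC beside 2.64 CPM in MEF. Between the Dcn and the Pax7 set 9 of 16 were higher and 1 lower, led by Mmp3 (8.26), Mmp2 (3.12), Fam20c (2.81) and Loxl1 (2.32).

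Of 18 regulators, all counted, 7 were at least 2-fold lower and 3 higher in iMPC than in MEF. Their median log2 ratio of -0.33 lay near the -0.17 of all genes, and the count of higher ones near the 14.8% of all genes. The lower ones, 7 of 18, made up a larger share than the 21.5% of all genes. Tgfb2 (3.36) and the transcription factor Tead4 (3.29) were higher, and the TGF-beta co-receptor Tgfbr3 (-3.00) was lower. Between the Dcn and the Pax7 set 3 of 14 were higher and 0 lower, among them Tgfbr3 (2.12) and the ligand Tgfb1 (1.89). Tead2 stood at -0.89.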

How the data were processed

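Single-cell data of 2 libraries were used, and the values are UMI counts per gene and barcode as the authors deposited them. Per the submitters' processing notes, Cell Ranger 4.0, Seurat 3.2.3 and the GRCm38.p6 build were used; the annotation, the strand setting and how the 6113 MEF barcodes were selected are not given in the sources used here. The matrices held 282903287 UMIs in iMPC and 118541302 in MEF, and 0 columns of other samples.

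Counts were summed over cells, divided by the total and given per 1000000 (CPM), with exact Poisson intervals; log2 ratios had exact conditional and shares exact Clopper-Pearson intervals. A ratio between 2 iMPC sets left out cells in both. Calls needed 2-fold and 10 CPM in the higher set. The UMI minimum for iMPC cells was that of the rule for the cell sets. Doublets were kept. Scrublet in scanpy 1.11.5 marked 337 iMPC cells and 1 MEF cell, and leaving out these and the highest 5% of MEF scores was an alternative. Python 3.11.15, numpy 2.4.6, scipy 1.17.1 and pandas 2.3.3 were used, and the scripts were tested on simulated data.

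The text names the 8 members, genes defining or checking the sets, the 5 most correlated genes per member, and the 4 genes of each list with the largest ratio in 2 comparisons, plus Fam20c as a single higher gene. A gene that this rule selects is not reported here. The members, sets and lists were chosen with earlier results of these data known. The splits by Mki67 and of Pax7 cells by Dcn were added after seeing the data.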

Additional observations from a re-analysis of the deposited data

Results flagged for a closer look

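All 8 genes had UMIs in data outside the main measurement, the 48846 iMPC barcodes of 200 to 600 UMIs, which are too small to count as cells here. Spp1 stood at 659 CPM in them, Sparc at 319 CPM, Fn1 at 124 CPM and Tnc at 27.9 CPM. Thbs1 stood at 15.0 CPM, Thbs2 at 5.79 CPM, Thbs4 at 0.941 CPM and Thbs3 at 0.659 CPM. Each lies above 0.141 CPM, the level that the floor of 3 counts gives in these barcodes. The level of Thbs1 was close to that of the iMPC cells, 14.2 CPM, while that of Spp1 was below the 2030 CPM of the cells. In the 2636580 barcodes of 1 to 100 UMIs, however, Thbs1 stood at 203 CPM, above its level in the cells. What either group of barcodes holds was not tested.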

How the results depend on the processing

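For the 5 counts of members past 2-fold and the shares of cells, 60 alternative values stayed within the set limits (1.5 times the main count) and 3 did not. These 3 concern the Ckm against the Myog set, where the count of 2 became 1 with scaling by the median of gene ratios, 4 with a minimum of 1 CPM and 1 with sets called at 8000 UMIs. Of the other values, 354 moved by less than their counting interval and 231 by more, and none reversed a called direction. Of the 65 most correlated genes, 45 remained with Spearman's rho. For Spp1 and for Thbs1 in iMPC only 2 of 5 remained, and 3 or 4 of 5 in every other case. Leaving out the 16 barcodes found in both libraries and applying the UMI minimum of the iMPC cells to MEF were chosen after seeing the data. With 1 library per culture the spread between cultures is unknown, so culture, library and sequencing run cannot be told apart. No paired analysis was possible because each group had 1 library and no result came from a test. Depth limits Thbs3 and Thbs4, with 171 and 378 UMIs in iMPC.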
